A study of Homo sapiens with 10 samples.

Results

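The genes described here make cholesterol and fatty acids or control their synthesis and export. They number 32 of the 28265 genes in the deposited count tables and were listed by name, after their known function. By role they are 18 enzymes of the mevalonate pathway and of sterol synthesis, 6 genes for the SREBP transcription factors, their partners in the endoplasmic reticulum (ER) and a sterol carrier, 4 enzymes of fatty acid synthesis, and 4 genes for the sterol receptor LXRα and its targets. All 32 had at least 5 counts in at least 2 libraries and were tested.

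Bulk RNA-seq was done on cells that had been sorted for green fluorescence (NKX2-1GFP+) from thyroid organoids grown from human embryonic stem cells. The line, ESIBIe003-A-6, has GFP inserted in 1 *NKX2-1* allele and carries transgenes for *NKX2-1* and *PAX8* that doxycycline switches on. All libraries came from this single modified line after activin A and a pulse of doxycycline, in medium with serum. There were 2 libraries at each of days 16, 23, 31, 38 and 45, 10 in all, each from several pooled wells. The labels give c-AMP for days 16, 23 and 31, TSH DEX for day 38 and TSH SB for day 45. By the methods these are 8-br-cAMP (a cAMP analogue that enters cells), recombinant TSH with dexamethasone (a glucocorticoid), and TSH with SB431542 (an inhibitor of TGFβ receptor kinases). By the schedule in the paper's results, the cells of day 16 had not yet received cAMP, the cells of day 31 had just been moved to TSH with dexamethasone, and dexamethasone was also present up to day 45. The paper places the start of SB431542 either just before or on day 38. The cells of day 38 could therefore already have received it, although their label does not name it. Every change of medium fell together with a change of day, so time and medium cannot be told apart, and libraries kept on cAMP to the end were not analysed here. GFP in this line reports the *NKX2-1* locus, so the gate marks any cell that uses this gene.

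Cells make cholesterol from acetyl-CoA through mevalonate, squalene and lanosterol, and fatty acids from the same acetyl-CoA through malonyl-CoA. When ER membranes hold little sterol, SCAP carries the SREBP factors to the Golgi, where they are cut and released to switch on the synthesis enzymes, and when sterol is plentiful the INSIG proteins keep SCAP and SREBP in the ER. Oxidised forms of cholesterol activate LXR, which raises the exporters *ABCA1* and *ABCG1*, the ubiquitin ligase *MYLIP*, which lowers lipoprotein receptors, and *SREBF1*. In thyroid follicular cells the ER is the compartment through which the large glycoprotein thyroglobulin passes on its way to the follicle lumen.

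Counted reads per library ranged from 7247268 to 10333933, so that 3 counts, used here as the floor of detection, equal 0.29 to 0.414 CPM (counts scaled to a library of 1000000 counts), and this floor covers counting error only. CPM values below were scaled with TMM factors, log2 fold changes carry their standard error (SE), and a gene is called changed where the adjusted p from edgeR's quasi-likelihood test, over all 21014 genes tested, was under 0.05. Markers of the labelled cell type were examined. The cells were sorted on the *NKX2-1* reporter and carry transgenes for *NKX2-1* and *PAX8*, so these 2 genes are no independent check. *NKX2-1* was present in every library, at 58.1 to 157 CPM, *PAX8* at 477 to 728 CPM, and *TG*, the thyroglobulin gene, ran from 10.7 CPM at day 16 to 7964 CPM at day 45. Of 6 thyroid markers, *TG*, *TSHR* and *HHEX* were called higher and *NKX2-1*, *PAX8* and *FOXE1* lower at day 45 than at day 16, with *FOXE1* at 764 ± 189 CPM at day 16 and 211 ± 9.55 at day 45 (mean ± SD, n = 2). The fibroblast markers *DCN*, *COL1A2*, *PRRX1*, *LUM* and *PDGFRA* summed to 308 to 439 CPM in the libraries of days 16 to 31 and to 1138 to 1349 CPM in those of days 38 and 45, with *COL1A2* the most abundant in each library and none of the 5 at 0. *COL1A2* made up most of this difference, at 182 ± 39.8 CPM at day 31 and 1157 ± 8.76 at day 38 (mean ± SD, n = 2), while *LUM* fell from 98.7 ± 3.47 to 42 ± 6.01 CPM. *PRRX1* was highest at day 16, at 39.1 ± 8.91 CPM against 3.71 ± 0.0778 at day 23 and 8.43 ± 1.42 at day 45. *LUM* was highest at day 23, at 168 ± 15.2 CPM against 51.8 ± 12.5 at day 16. Between days 16 and 45 *DCN* went from 5.88 ± 5.09 to 130.1 ± 20.7 CPM and *PDGFRA* from 18.6 ± 3.12 to 52.6 ± 1.17 CPM, and 4 of the 5 were called higher and 1 lower. The 5 cardiovascular markers summed to 12 to 32 CPM and then to 127 to 141 CPM, mostly from *MYH6*, with *NKX2-5* at 0 in 1 library of day 16 and in every library of days 23 and 31. The goblet cell markers *MUC5AC*, *MUC5B*, *TFF3* and *SPDEF* summed to 1.27 to 6.05 CPM up to day 31, with *TFF3* at 0 in the libraries of days 16 and 23, and to 36.6 to 105.4 CPM afterwards, mostly from *MUC5AC* at day 38 and *MUC5B* at day 45. The airway markers *KRT5*, *TP63*, *KRT15* and *SOX2* summed to 8.69 to 52.6 CPM over all days, with *KRT5* at 0 in 1 library of day 16 and 1 of day 23. Within this sum *KRT5* averaged 0.0572 ± 0.0808 CPM (day 23), 9.38 ± 7.63 (day 31), 11 ± 1.16 (day 38) and 32.5 ± 6.15 (day 45), and *SOX2* averaged 2.93 ± 0.223, 13.1 ± 3.03, 22.6 ± 1.89 and 5.63 ± 0.372 CPM in the same order. Both were called higher from day 23 to day 31, and from day 38 to day 45 *KRT5* was called higher and *SOX2* lower. At day 16 the most abundant of the 4 airway markers was *TP63*, at 15.2 and 10.6 CPM. Between days 16 and 45, 1 of the 4 was called higher and 0 lower. Only 1 of their log2 fold changes was positive, and the median was -0.28. The part of these other cells in the results below was not tested, and in bulk RNA fewer cells of a type and less RNA per cell cannot be told apart.

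Between day 16 and day 45, more members were called higher than lower. The counts were 12 of 32 called higher and 2 lower, 43.8% in all, while 24.6% of all genes tested were called, 12.9% higher and 11.7% lower. The median log2 fold change was 0.31 over the members and 0 over all genes. The 12 that rose were the sterol enzymes *HMGCS1*, *MVD*, *IDI1*, *LSS*, *CYP51A1*, *MSMO1* and *SC5D*, the control and transport genes *SREBF1*, *INSIG1* and *STARD4*, and the fatty acid genes *FASN* and *SCD*. The 2 that fell were *ELOVL6*, which lengthens fatty acids, and *ABCA1*, the cholesterol exporter. The sum of all 32 members was 1959 and 1914 CPM (day 16), 1592 and 1646 (day 23), 1954 and 2016 (day 31), 2223 and 2123 (day 38), 2385 and 2312 (day 45). It was lowest in the libraries of day 23 and highest in those of day 45, without overlap of either day with another.

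The calls were spread unevenly over the weeks between these days. Successive steps share the libraries of the day between them, so a fall into day 23 and a rise out of it are not independent. From day 16 to day 23, 5 members were called lower (*HMGCS1*, *IDI1*, *SCD*, *ABCA1*, *MYLIP*) and 1 higher (*FASN*), 18.8% of the members beside 10.9% of all genes, of which 5.6% were higher and 5.33% lower. From day 23 to day 31, 4 members were called higher (*HMGCS1*, *MSMO1*, *INSIG1*, *SCD*), 12.5% beside 2.25% of all genes (1.58% higher, 0.666% lower). Members called lower there numbered 0 by edgeR, 0 by DESeq2 and 0 at an unadjusted p under 0.05. From day 31 to day 38, *INSIG2*, *STARD4* and *SCD* were called higher and *FASN*, *ELOVL6* and *ABCA1* lower, and the share of members called, 18.8%, lay near the 15% of all genes (8.8% higher, 6.23% lower). From day 38 to day 45, *HMGCS1*, *IDI1*, *CYP51A1* and *MYLIP* were called higher and *INSIG2* lower, 15.6% beside 11.2% of all genes (4.85% higher, 6.35% lower). The members' median log2 fold changes over these steps were -0.06, 0.17, 0.17 and 0.08. With library size in place of TMM factors that from day 31 to day 38 was -0.0462 and 0 members were called higher. The same setting moved the median of all genes in this step from 0 to -0.2. With single libraries left out that from day 23 to day 31 ranged from 0.0749 to 0.345, and the number called higher was 7 without either library of day 16 and 1 without day 23 replicate 1, day 23 replicate 2 or day 31 replicate 1. Over all 5 days 16 of 32 members changed, 50%, beside 36.3% of all genes.

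**Figure D1:**
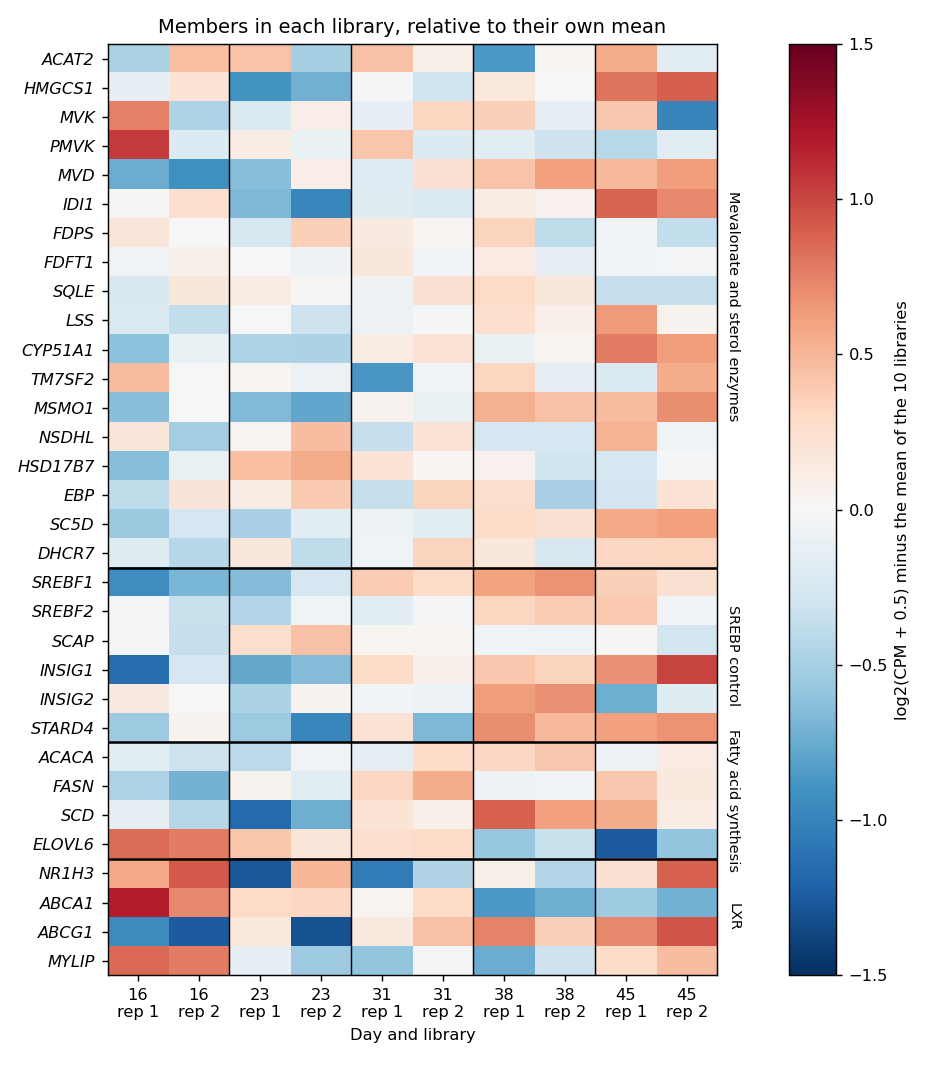
Each row is 1 of the 32 members and each column 1 library, and the colour gives log2(CPM + 0.5) minus the row's mean over the 10 libraries, from blue (below the mean) to red (above). *HMGCS1*, *IDI1*, *CYP51A1* and *INSIG1* are reddest at day 45, *ABCA1* and *ELOVL6* turn from red at day 16 to blue at days 38 and 45, and rows of low genes such as *ABCG1* and *MVK* differ strongly between libraries of 1 day.

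**Figure D2:**
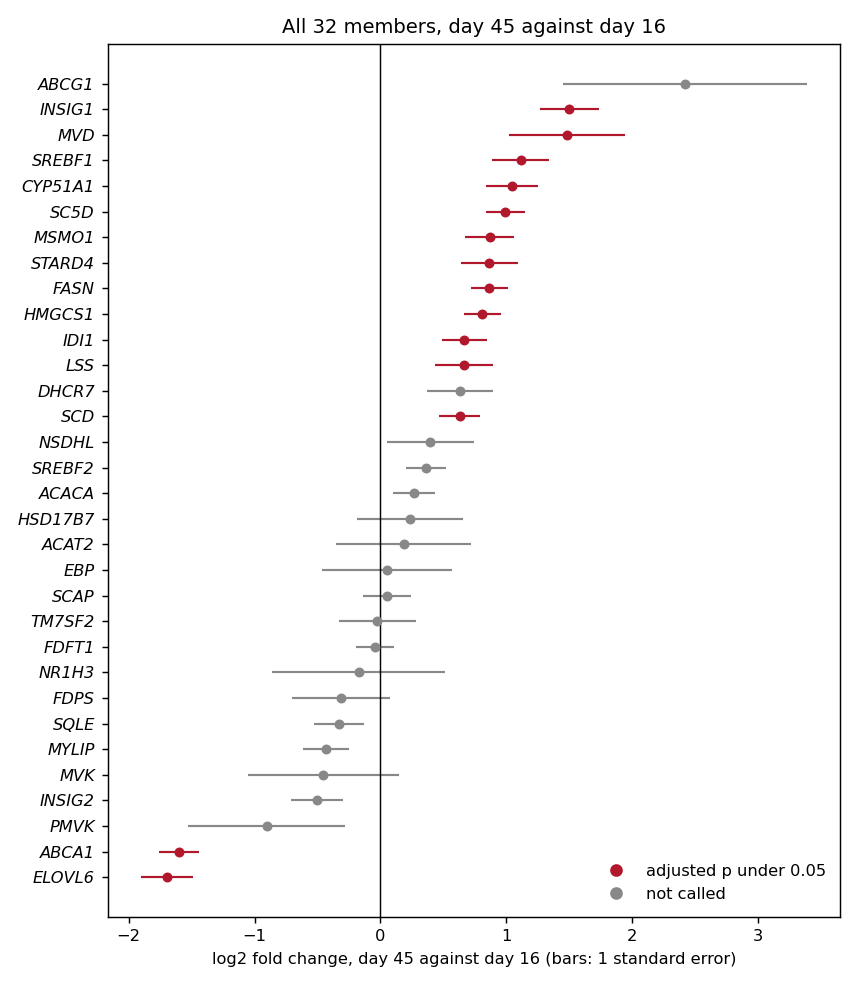
Points give the log2 fold change of each member from day 16 to day 45, with bars of 1 SE, and red marks the 14 members with an edgeR adjusted p under 0.05. *ABCG1* has the largest value, 2.42, with the widest bar, and was not called, whereas *ELOVL6* at -1.70 and *ABCA1* at -1.60 lie apart from the other members.

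The share of genes called differed with the level of expression. The 21 members with a mean of at least 30 CPM, a level chosen after the values were seen, had a median SE of 0.19 on the log2 scale, and 16 of them changed over the 5 days. The 11 members below it had a median SE of 0.515, and 0 of them passed that test, although *MVD* was called between days 16 and 45. Among all 6690 genes with a mean of at least 30 CPM the share called was likewise higher, 63.2% over the 5 days beside 76.2% of the 21 members. At this level 61.9% of the members and 43.3% of all genes were called between days 16 and 45, 19% and 4.3% between days 23 and 31, 28.6% and 21.7% between days 16 and 23, 28.6% and 29.7% between days 31 and 38, and 23.8% and 22.9% between days 38 and 45. The shares of the last 2 pairs are near each other in either direction together. By direction, 3 of the 21 members were called higher and 3 lower between days 31 and 38, beside 17.3% and 12.3% of genes at this level. Between days 38 and 45, 4 were called higher and 1 lower, beside 8.83% and 14.1% of genes, and the difference in split was not tested.

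**Figure D3:**
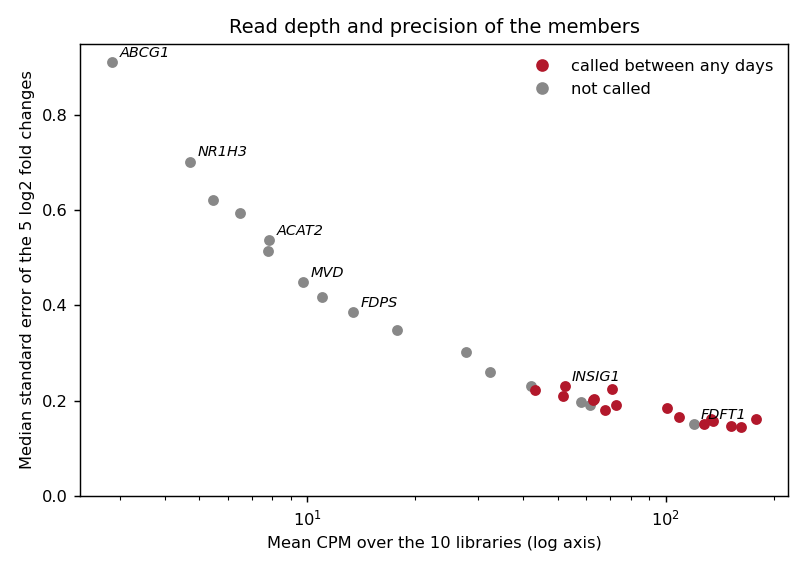
Each point is 1 member, with its mean CPM over the 10 libraries on a log axis and the median SE of its 5 log2 fold changes, and red marks the 16 members that changed over the 5 days. *ABCG1*, at 2.86 CPM, has the largest SE, the SE shrinks as the level grows, and every red point lies above 30 CPM.

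The stretch of DNA before the start of a gene is where SREBP and its helper NF-Y act on sterol genes. The promoters of some members are shown here, chosen for the reasons given below. Sequences of 27 members were matched in RefSeq (GRCh38.p14), from 250 bases before to 50 bases after each start, and 27305 promoters of the same length served as background. The CCAAT box, the core of NF-Y sites, was searched as CCAAT on both strands and was found in 17 of 27 members, 63%, and in 35.7% of all promoters. By role it was found in 12 of 15 sterol and mevalonate enzymes, 3 of 6 control and transport genes, 1 of 3 fatty acid genes and 1 of 3 LXR genes. The sterol regulatory element in the spelling TCACNCCAC was found in 1 member, *SREBF2*, 3.7%, and in 1.15% of all promoters. The palindrome TCACGTGA was found in 1 member, *INSIG1*, past the stretch shown, and in 1.04% of all, and its core CACGTG, which it contains, in 5 members, 18.5%, and in 7.43% of all. The GC box GGGCGG was found in 25 members, 92.6%, beside 44.6% of all promoters and 61% of the 14838 whose gene was tested. Capitals below mark the CCAAT box on either strand and the sterol regulatory element. Each sequence ends just before the annotated start and reads 5′ to 3′ on the strand of its gene. *HMGCS1* (minus strand, chr5:43313513-43313662), *MSMO1* (plus strand, chr4:165327419-165327666), *INSIG1* (plus strand, chr7:155297628-155297775) and *SCD* (plus strand, chr10:100346983-100347232) are shown because they rose together from day 23 to day 31. *SREBF2* (plus strand, chr22:41832855-41833104) is shown because it holds the only match to the sterol regulatory element, and *ABCA1* (minus strand, chr9:104928156-104928405) is shown because it fell from day 16 to day 23 and from day 31 to day 38.
HMGCS1: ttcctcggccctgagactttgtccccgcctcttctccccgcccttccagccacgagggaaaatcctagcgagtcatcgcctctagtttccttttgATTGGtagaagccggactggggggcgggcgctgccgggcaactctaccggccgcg
MSMO1: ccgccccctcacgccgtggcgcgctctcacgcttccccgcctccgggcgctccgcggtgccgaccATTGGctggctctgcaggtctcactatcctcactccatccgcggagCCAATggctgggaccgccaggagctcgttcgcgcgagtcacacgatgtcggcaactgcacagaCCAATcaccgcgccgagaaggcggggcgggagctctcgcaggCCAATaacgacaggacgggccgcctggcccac
INSIG1: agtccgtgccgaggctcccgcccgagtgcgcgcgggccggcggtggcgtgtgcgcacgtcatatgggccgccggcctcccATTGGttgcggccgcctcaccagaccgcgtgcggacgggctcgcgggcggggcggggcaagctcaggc
SCD: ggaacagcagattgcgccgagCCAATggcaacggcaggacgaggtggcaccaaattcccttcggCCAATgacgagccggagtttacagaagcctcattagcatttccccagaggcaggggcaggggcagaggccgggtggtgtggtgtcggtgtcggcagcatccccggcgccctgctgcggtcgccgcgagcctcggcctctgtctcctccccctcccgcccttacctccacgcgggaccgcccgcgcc
SREBF2: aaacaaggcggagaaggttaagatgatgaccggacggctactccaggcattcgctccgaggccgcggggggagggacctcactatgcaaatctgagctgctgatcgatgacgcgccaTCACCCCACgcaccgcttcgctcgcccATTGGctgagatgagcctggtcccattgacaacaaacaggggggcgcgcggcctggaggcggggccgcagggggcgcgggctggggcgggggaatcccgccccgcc
ABCA1: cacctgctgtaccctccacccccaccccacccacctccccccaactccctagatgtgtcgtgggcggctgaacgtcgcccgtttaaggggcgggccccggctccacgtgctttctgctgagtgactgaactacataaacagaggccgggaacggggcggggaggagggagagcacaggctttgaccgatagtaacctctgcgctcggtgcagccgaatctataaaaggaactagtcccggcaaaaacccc

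*MSMO1* carries 4 CCAAT boxes in the bases shown, *SCD* carries 2, and *HMGCS1*, *INSIG1* and *SREBF2* carry 1 each. *ABCA1* has none in its window and has 3 GC boxes and 1 CACGTG. Of the members not shown, *IDI1*, *INSIG2* and *SREBF1* were called between days and have no CCAAT box in their windows. *MVD*, *LSS*, *SC5D*, *STARD4* and *MYLIP* were also called and have at least 1. Of members not called, *NSDHL*, *EBP* and *FDPS* have 5, 3 and 3, and *NR1H3* and *PMVK* have none. Whether CCAAT boxes go with the changes was not tested. A match here is a run of letters and not a measured site, and no match says only that these letters are not in this window.

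Among the mevalonate enzymes, *HMGCS1* and *IDI1* fell together and rose together. *HMGCS1*, which joins acetyl-CoA and acetoacetyl-CoA into HMG-CoA, was measured at 130.4 and 164 CPM (day 16), 76.3 and 85.6 (day 23), 139 and 116 (day 31), 158 and 142 (day 38), 248.7 and 266 (day 45). Both libraries of day 23 lay below every other library, and both of day 45 lay above every other. It fell from day 16 to day 23 (log2 fold change -0.86 ± 0.15 SE, edgeR adjusted p = 0.0001) and rose to day 31 (log2 fold change 0.66 ± 0.15 SE, edgeR adjusted p = 0.00958). It rose again from day 38 to day 45 (log2 fold change 0.78 ± 0.15 SE, edgeR adjusted p = 0.00026). Day 45 ended 1.75-fold above day 16 (log2 fold change 0.81 ± 0.15 SE, edgeR adjusted p = 6e-05). The step from day 31 to day 38 was not called (log2 fold change 0.23). The rise to day 31 was no longer called without day 23 replicate 1 (log2 fold change 0.57), day 23 replicate 2 (0.74) or day 31 replicate 1 (0.51).

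*IDI1*, the isomerase that interconverts the isoprene units used in chain building, had its low and high days in common with *HMGCS1*. Its libraries gave 64.2 and 75.5 CPM (day 16), 39.5 and 32 (day 23), 56 and 54.6 (day 31), 68.4 and 66.1 (day 38), 116 and 105 (day 45). Here too the libraries of day 23 were the lowest and those of day 45 the highest, without overlap with any other day. *IDI1* fell from day 16 to day 23 (log2 fold change -0.97 ± 0.19 SE, edgeR adjusted p = 0.00035) and rose from day 38 to day 45 (log2 fold change 0.72 ± 0.18 SE, edgeR adjusted p = 0.00592). It ended above day 16 (log2 fold change 0.66 ± 0.18 SE, edgeR adjusted p = 0.00523). The rise from day 23 to day 31, of similar size, was not called (log2 fold change 0.63 ± 0.18 SE, edgeR adjusted p = 0.0669). The late rise was no longer called without either library of day 38 (log2 fold change 0.74 and 0.69) or without day 45 replicate 1 (0.64), and the difference from day 16 was no longer called without day 16 replicate 1 (0.54) or day 45 replicate 1 (0.59). An antisense gene, *IDI2-AS1*, shares 15% of the exon bases of *IDI1* on the opposite strand. Since the strand setting of the counting is not given in the sources used here, reads of the pair cannot be told apart.

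*MVD*, which removes a carboxyl group to make the first isoprene unit, was low, at 5.2 and 4.56 CPM (day 16), 5.65 and 9.72 (day 23), 7.88 and 10.7 (day 31), 12.3 and 14.1 (day 38), 12.9 and 14.3 (day 45). It was called higher at day 45 than at day 16 (log2 fold change 1.48 ± 0.46 SE, edgeR adjusted p = 0.0158). This call was lost without day 16 replicate 2 (log2 fold change 1.39) or day 45 replicate 2 (1.4). The other early enzymes were also low and were not called in any comparison. *ACAT2*, the thiolase of the opening step, ranged from 3.89 to 11.2 CPM over the 10 libraries. *MVK* and *PMVK*, the kinases of mevalonate, ranged from 2.84 to 10.8 and from 3.77 to 11.3 CPM. *FDPS*, which joins isoprene units into farnesyl diphosphate, ranged from 10 to 17.1 CPM. In *MVK* the libraries of day 45 alone spanned 8.28 and 2.84 CPM. *ACAT2* shares 22.2% of its exon bases with the genes *TCP1* and *SOD2* and a non-coding neighbour on the opposite strand, and *FDPS* shares 18.6% with *RUSC1-AS1*, so that their counts are uncertain.

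*FDFT1* and *SQLE*, which make squalene and its epoxide, were not called in any comparison. *FDFT1*, squalene synthase, draws farnesyl diphosphate into the sterol branch and was at 116 and 126 CPM (day 16), 119 and 113 (day 23), 134 and 116 (day 31), 130.5 and 108 (day 38), 116 and 118 (day 45). Libraries of all days overlapped, and no comparison gave a log2 fold change beyond 0.11 in size with an SE of about 0.15. *SQLE*, squalene epoxidase, was at 48.7 and 64.8 CPM (day 16), 62.3 and 58.2 (day 23), 54.8 and 67.3 (day 31), 70.7 and 65 (day 38), 45.2 and 45.3 (day 45). Its 2 libraries of day 45 were the lowest of the 10, and the step from day 38 fell just short of the threshold (log2 fold change -0.58 ± 0.20 SE, edgeR adjusted p = 0.0507). *LSS*, which folds the epoxide into lanosterol, rose from 33.7 ± 2.55 CPM at day 16 to 53.5 ± 15.3 CPM at day 45 (mean ± SD, n = 2; log2 fold change 0.66 ± 0.23 SE, edgeR adjusted p = 0.0333). Without day 45 replicate 1, which read 64.3 CPM beside 42.7 CPM in its replicate, the log2 fold change was 0.34 and the call was lost. It was also lost without either library of day 16 (0.73 and 0.59), with library size in place of TMM factors (0.57) and with only the 4 libraries compared (0.65).

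Past lanosterol, 3 enzymes rose. *CYP51A1*, the demethylase that acts on lanosterol itself, was at 32 and 46.1 CPM (day 16), 35.7 and 35.3 (day 23), 53.4 and 57.4 (day 31), 46.1 and 50.8 (day 38), 84.2 and 76.8 (day 45). Both libraries of day 45 exceeded all others. It rose from day 38 to day 45 (log2 fold change 0.73 ± 0.21 SE, edgeR adjusted p = 0.0156) and was 2.06-fold above day 16 (log2 fold change 1.04 ± 0.21 SE, edgeR adjusted p = 0.0002). The call against day 38 was lost without either library of day 38 (log2 fold change 0.66 and 0.80) or without day 45 replicate 1 (0.67).

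*MSMO1*, the monooxygenase that starts the removal of the next methyl groups, was at 43.7 and 68.5 CPM (day 16), 42.9 and 39.4 (day 23), 70.7 and 63.4 (day 31), 98.8 and 92.6 (day 38), 93.8 and 111 (day 45). Its libraries of days 38 and 45 lay above those of day 31 and before. The rise from day 16 to day 45 held under every alternative tried (log2 fold change 0.87 ± 0.19 SE, edgeR adjusted p = 0.00068). That from day 23 to day 31 (log2 fold change 0.70 ± 0.19 SE, edgeR adjusted p = 0.0433) was lost under 9 of 16, among them edgeR's filterByExpr (log2 fold change 0.70) and each library of days 23 and 31 left out (0.62 to 0.77). *SC5D*, which puts a double bond into lathosterol near the end of the pathway, was at 83.9 and 104 CPM (day 16), 88.2 and 109.6 (day 23), 117 and 110.3 (day 31), 149 and 145 (day 38), 184 and 189 (day 45). No single step was called, yet the libraries lay higher without overlap from day 31 to day 38 and from day 38 to day 45. Day 45 was 1.99-fold above day 16 (log2 fold change 0.99 ± 0.15 SE, edgeR adjusted p = 3.9e-06).

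**Figure D4:**
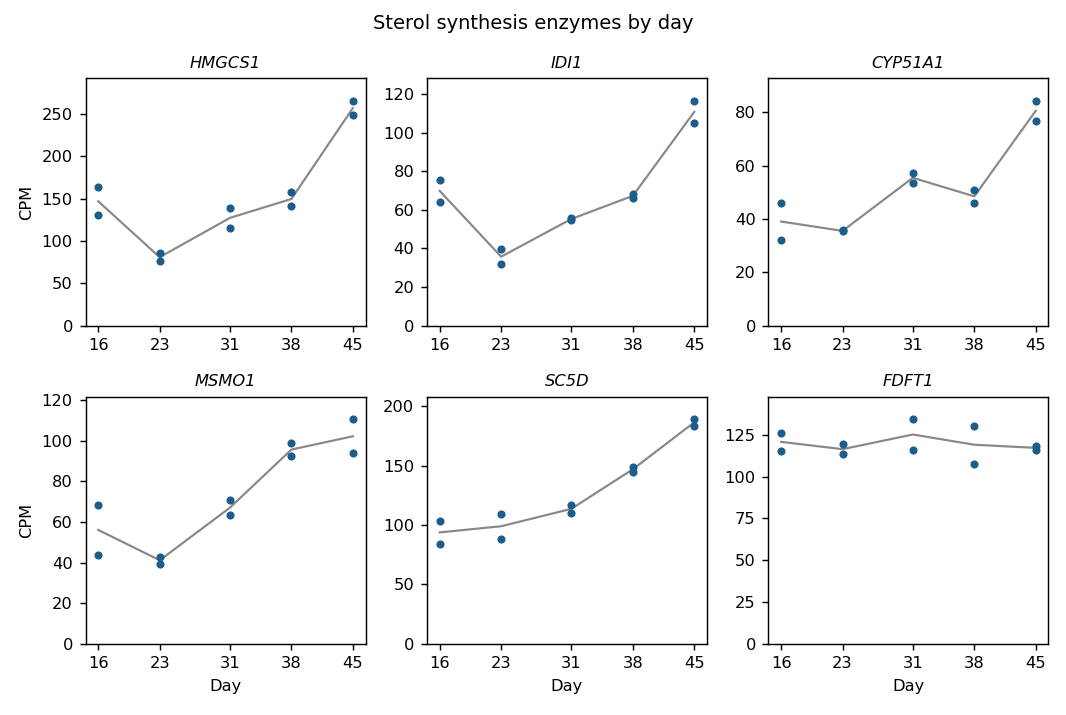
CPM of 6 sterol synthesis enzymes by day, with 1 point per library and a line through the day means, each panel on its own linear axis from 0. *HMGCS1* and *IDI1* dip at day 23 and peak at day 45, *SC5D* is highest at day 45, and *FDFT1* stays between 108 and 134 CPM.

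The remaining ring enzymes were not called in any comparison. *DHCR7*, a reductase whose product is cholesterol, ranged from 23.4 to 39.9 CPM and stood at 39.6 ± 0.188 CPM at day 45 against 25.6 ± 3.09 at day 16 (mean ± SD, n = 2; log2 fold change 0.63 ± 0.26 SE, edgeR adjusted p = 0.0791). *TM7SF2*, a sterol reductase, ranged from 14.4 to 39.8 CPM. *NSDHL* and *HSD17B7*, which complete the removal of methyl groups, ranged from 11.9 to 25.1 and from 6.72 to 16 CPM, and *EBP*, the sterol isomerase, from 5.24 to 10.1 CPM. *HSD17B7* was highest in both libraries of day 23, at 14.9 and 16 CPM against 6.72 and 9.85 CPM at day 16, without passing the test (log2 fold change 0.90 ± 0.42 SE, edgeR adjusted p = 0.187). Of the 18 enzymes, then, 7 were called higher at day 45 than at day 16, 38.9% beside 12.9% of all genes, and the median log2 fold change over the 18 was 0.32. The summed level of the 18 was 699 and 797 CPM (day 16), 647 and 649.6 (day 23), 786 and 775 (day 31), 920.2 and 832 (day 38), 1104 and 1108 (day 45). Both libraries of day 45 lay above every other, and both of day 23 below. No enzyme was called between days 31 and 38 by edgeR or DESeq2, beside 15% of all genes by edgeR, and an unadjusted p under 0.05 was reached by 2.

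Per kilobase of exon, the abundance of the enzymes differed widely. Over the 10 libraries *MSMO1* averaged 25.4, *FDFT1* 23.6, *HMGCS1* 23, *IDI1* 15.8, *SQLE* 13.5, *SC5D* 12.7 and *CYP51A1* 12.4 RPKM (CPM per kilobase of exon), and *MVK*, *PMVK* and *MVD* averaged 0.721, 5.45 and 2.06 RPKM. The levels use the union of annotated exons as length, so an enzyme that uses few of its exons is understated.

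Among the control genes, *SREBF1*, *INSIG1* and *STARD4* were higher at day 45 than at day 16. *SREBF1* encodes SREBP1, the factor that mainly drives fatty acid genes, and it was at 20.8 and 24.9 CPM (day 16), 25.4 and 33.8 (day 23), 52.7 and 48.8 (day 31), 61.3 and 64.7 (day 38), 51.5 and 47.4 (day 45). All 6 libraries from day 31 on lay above the 4 before it. It was 2.16-fold higher at day 45 than at day 16 (log2 fold change 1.11 ± 0.23 SE, edgeR adjusted p = 0.00025). No weekly step was called, the nearest being day 31 against day 23 (log2 fold change 0.78 ± 0.22 SE, edgeR adjusted p = 0.0561). *SREBF2* encodes SREBP2, which mainly drives cholesterol synthesis, and ranged from 96.9 to 173 CPM. It changed over the 5 days (edgeR adjusted p = 0.0103) with its highest mean at day 38, 168 ± 4.48 CPM (SD, n = 2), and was not called in any of the 5 comparisons of days. Per length the ratio of *SREBF2* to *SREBF1* was 6.38 and 4.28 (day 16), 3.9 and 3.79 (day 23), 2.29 and 2.71 (day 31), 2.74 and 2.7 (day 38), 3.43 and 2.75 (day 45), above 1 in every library and highest in those of day 16. The gene *RAI1* shares 6.75% of the exon bases of *SREBF1* and *SREBF2-AS1* shares 9.08% of those of *SREBF2*, on the opposite strand in both cases, so a part of these counts is uncertain. The same holds for smaller shares of *CYP51A1* (5.9%, with *AKAP9* and *CYP51A1-AS1*), *NR1H3* (4.17%, with *ACP2*), *MVK* (2.5%, with *MMAB*) and *STARD4* (2.18%, with *STARD4-AS1*).

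*SCAP*, the escort of SREBP, ranged from 47.4 to 82.1 CPM and was not called. Its libraries of day 23, at 73 and 82.1 CPM, were the highest (log2 fold change 0.53 ± 0.19 SE, edgeR adjusted p = 0.0687).

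*INSIG1*, which holds SCAP in the ER and is itself an SREBP target, was at 21.4 and 39.8 CPM (day 16), 27.6 and 30.2 (day 23), 57.7 and 50.2 (day 31), 63 and 60.2 (day 38), 76.5 and 96.7 (day 45). The libraries of day 45 were the highest, and those from day 31 on all exceeded those of days 16 and 23. *INSIG1* rose from day 23 to day 31 (log2 fold change 0.90 ± 0.23 SE, edgeR adjusted p = 0.0257). At day 45 it was 2.83-fold higher than at day 16 (log2 fold change 1.5 ± 0.23 SE, edgeR adjusted p = 4.3e-06). The first of these calls was lost without any 1 of the libraries of days 23 and 31 (log2 fold change 0.80 to 0.99), and the second held under every alternative, with a range of 1.11 to 2.02.

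*INSIG2*, its paralogue, does the same work in the ER but is not switched on by SREBP in the usual view. Its libraries read 66.7 and 60.5 CPM (day 16), 43.6 and 63 (day 23), 58.6 and 57.2 (day 31), 93.6 and 97.9 (day 38), 36.1 and 53.3 (day 45). The 2 libraries of day 38 stood far above the rest, and day 45 fell back below day 38 without overlap. *INSIG2* rose from day 31 to day 38 (log2 fold change 0.72 ± 0.20 SE, edgeR adjusted p = 0.0108). It fell from day 38 to day 45 (log2 fold change -1.09 ± 0.20 SE, edgeR adjusted p = 0.00023). The fall held under every alternative tried. The rise was lost without any 1 of the 4 libraries of these days (log2 fold change 0.69 to 0.76) and with library size in place of TMM factors (0.51), a setting that moved the median of all genes in this comparison by -0.20. Over the same step from day 38 to day 45 *INSIG1* was not called (log2 fold change 0.49 ± 0.22 SE, edgeR adjusted p = 0.178). The ratio of *INSIG1* to *INSIG2* per length was 0.348 and 0.712 (day 16), 0.685 and 0.518 (day 23), 1.06 and 0.948 (day 31), 0.728 and 0.665 (day 38), 2.29 and 1.96 (day 45). It was below 1 in the libraries of days 16, 23 and 38 and highest in both of day 45, and this ratio was not tested.

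*STARD4*, a soluble carrier that moves cholesterol between membranes, was at 44.5 and 67.5 CPM (day 16), 44.6 and 32.7 (day 23), 75.5 and 40.6 (day 31), 106 and 91.5 (day 38), 99.7 and 104 (day 45). All 4 libraries of days 38 and 45 lay above the other 6. It rose from day 31 to day 38 (log2 fold change 0.76 ± 0.22 SE, edgeR adjusted p = 0.0151). Day 45 was also above day 16 (log2 fold change 0.86 ± 0.22 SE, edgeR adjusted p = 0.00347). The weekly rise was lost without day 31 replicate 2 (log2 fold change 0.38) or day 38 replicate 1 (0.65) and with library size in place of TMM factors (0.54), and the longer one without day 16 replicate 1 (0.59).

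**Figure D5:**
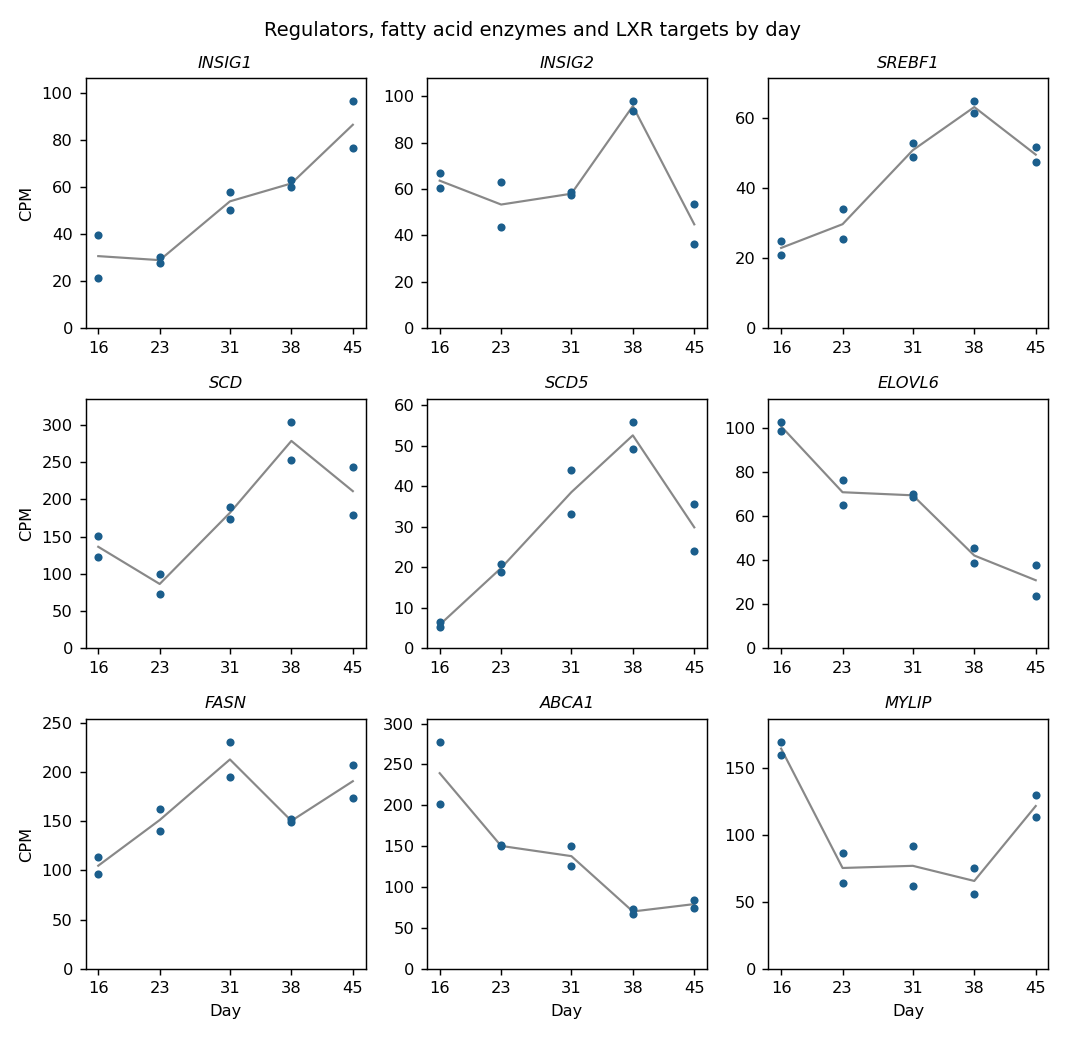
CPM of 9 control, fatty acid and LXR genes by day, with 1 point per library and a line through the day means, each panel on its own linear axis from 0. *INSIG1* is highest at day 45 where *INSIG2* has fallen from its peak at day 38, *ELOVL6* and *ABCA1* fall from day 16 to day 45, and *SCD5* starts at 6.47 and 5.17 CPM and is higher in all later libraries.

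The fatty acid enzymes did not move as a block. *FASN*, the synthase that builds palmitate, was at 113 and 95.9 CPM (day 16), 162 and 139.7 (day 23), 195 and 230.4 (day 31), 149 and 152 (day 38), 207 and 174 (day 45). The libraries of day 16 were the lowest and those of day 31 averaged highest, 213 ± 25.1 CPM (SD, n = 2). *FASN* rose from day 16 to day 23 (log2 fold change 0.53 ± 0.15 SE, edgeR adjusted p = 0.0146) and fell from day 31 to day 38 (log2 fold change -0.50 ± 0.15 SE, edgeR adjusted p = 0.0149). Day 45 was 1.82-fold above day 16 (log2 fold change 0.86 ± 0.15 SE, edgeR adjusted p = 2.2e-05). Its first step was lost without day 16 replicate 2 (log2 fold change 0.41), without day 23 replicate 1 (0.42) and with only the 4 libraries compared (0.53), and the fall was lost without day 31 replicate 2 (-0.38) or either library of day 38 (-0.48 and -0.52). *ACACA*, the carboxylase that supplies malonyl-CoA, ranged from 81.2 to 142 CPM and changed over the 5 days (edgeR adjusted p = 0.0175). Its highest mean was at day 38, and it was not called in any of the 5 comparisons of days.

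*SCD* puts the double bond into stearate and palmitate and averaged 34.1 RPKM over the 10 libraries, close to *MYLIP* at 32.8 RPKM. By day means *MYLIP* was the higher of the 2 at days 16 and 23 and *SCD* at days 31 and 38, with close means at day 45 (40.2 RPKM for *SCD* and 39.6 RPKM for *MYLIP*). The libraries of *SCD* gave 151 and 122 CPM (day 16), 73.5 and 99.5 (day 23), 189.97 and 174 (day 31), 305 and 253 (day 38), 243 and 179 (day 45). The libraries of day 23 were the lowest and those of day 38 the highest, and days 31 and 45 overlapped. *SCD* fell from day 16 to day 23 (log2 fold change -0.66 ± 0.16 SE, edgeR adjusted p = 0.00563). It rose 2.11-fold to day 31 (log2 fold change 1.07 ± 0.16 SE, edgeR adjusted p = 5.4e-05) and further to day 38 (log2 fold change 0.61 ± 0.16 SE, edgeR adjusted p = 0.00589). At day 45 it was above day 16 (log2 fold change 0.63 ± 0.16 SE, edgeR adjusted p = 0.00306). The step down from day 38 was not called (log2 fold change -0.40 ± 0.16 SE, edgeR adjusted p = 0.107). The rise to day 31 held under every alternative. The early fall was lost without day 16 replicate 1 (log2 fold change -0.48) or day 23 replicate 1 (-0.46). The rise to day 38 was lost without day 31 replicate 2 (0.55), without day 38 replicate 1 (0.47) or with library size in place of TMM factors (0.39). The difference from day 16 to day 45 was lost without day 16 replicate 2 (0.49) or day 45 replicate 1 (0.39).

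*ELOVL6*, which adds carbons to palmitate, was lower at day 45 than at day 16, at 103 and 98.6 CPM (day 16), 76.6 and 65.2 (day 23), 68.8 and 70.2 (day 31), 38.7 and 45.6 (day 38), 24 and 37.9 (day 45). Every library of days 38 and 45 lay below every library of the earlier days. It fell from day 31 to day 38 (log2 fold change -0.72 ± 0.20 SE, edgeR adjusted p = 0.011). Day 45 was at 0.309 of the level of day 16 (log2 fold change -1.7 ± 0.21 SE, edgeR adjusted p = 4.9e-08). The weekly step was lost without either library of day 31 (log2 fold change -0.735 and -0.71) or without day 38 replicate 1 (-0.61), and the long one held under every alternative, from -1.41 to -2.07.

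Of the LXR genes, *ABCA1* fell and *MYLIP* fell and rose again. *ABCA1*, which loads cholesterol onto apolipoproteins at the cell surface, was at 277 and 201 CPM (day 16), 149.6 and 151 (day 23), 125 and 150.2 (day 31), 67 and 73.2 (day 38), 83.9 and 74.4 (day 45). The libraries of day 16 lay above all others, those of days 23 and 31 overlapped, and those of days 38 and 45 lay at or below 83.9 CPM. *ABCA1* fell from day 16 to day 23 (log2 fold change -0.67 ± 0.15 SE, edgeR adjusted p = 0.00283) and from day 31 to day 38 (log2 fold change -0.97 ± 0.16 SE, edgeR adjusted p = 2e-05). At day 45 it was at 0.331 of its level at day 16 (log2 fold change -1.6 ± 0.16 SE, edgeR adjusted p = 6.7e-10). The first step was lost without day 16 replicate 1 (log2 fold change -0.41), and the other 2 calls held under every alternative.

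*MYLIP*, the ubiquitin ligase that marks lipoprotein receptors for breakdown, was at 169.7 and 159.7 CPM (day 16), 86.6 and 64.3 (day 23), 62.2 and 91.8 (day 31), 55.8 and 75.6 (day 38), 114 and 129.97 (day 45). It was highest in the libraries of day 16, and both libraries of day 45 exceeded all of days 23, 31 and 38. It fell from day 16 to day 23 (log2 fold change -1.13 ± 0.18 SE, edgeR adjusted p = 3.8e-05). It rose from day 38 to day 45 (log2 fold change 0.89 ± 0.18 SE, edgeR adjusted p = 0.00081), so that its direction in the last step was that of *HMGCS1* and not that of *INSIG2*. The rise was lost without day 38 replicate 1 (log2 fold change 0.69). Day 45 remained below day 16 without passing the test (log2 fold change -0.43 ± 0.18 SE, edgeR adjusted p = 0.0791). *NR1H3*, the gene for LXRα, ranged from 1.44 to 8.25 CPM, and *ABCG1*, the exporter to mature high-density lipoproteins, from 0.686 to 5.13 CPM. Both libraries of day 45 were above both of day 16 for *ABCG1* (log2 fold change 2.42 ± 0.97 SE, edgeR adjusted p = 0.0658).

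Among the 16 members that changed over the 5 days, the day of the highest mean was day 45 for 7 (*HMGCS1*, *IDI1*, *CYP51A1*, *MSMO1*, *SC5D*, *INSIG1*, *STARD4*), day 38 for 5 (*SREBF1*, *SREBF2*, *INSIG2*, *ACACA*, *SCD*), day 31 for 1 (*FASN*) and day 16 for 3 (*ELOVL6*, *ABCA1*, *MYLIP*). None peaked at day 23, and 8 had their lowest mean there. Among all 7628 genes that changed over the 5 days the highest mean fell on day 16 in 20.2%, day 23 in 16.2%, day 31 in 13%, day 38 in 20.1% and day 45 in 30.6%, and the lowest on day 23 in 18.8%, beside 50% of the 16 members. The difference between these shares was not tested. The 7 that peaked at day 45 are sterol enzymes, an ER anchor of SCAP and a sterol carrier. Neighbouring days in these orders often overlapped, as for *MSMO1*, *STARD4* and *SREBF2* between days 38 and 45 and for *FASN* between days 31 and 45. At the low end, days 16 and 23 overlapped for *CYP51A1*, *INSIG1*, *STARD4* and *SREBF2*. Of the 8 lowest at day 23, only *HMGCS1*, *IDI1* and *SCD* were called lower there than at day 16.

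A further 54 genes that supply, process or branch off the same lipids were examined in 4 lists, 53 of which were tested, *CH25H* being at 0 in 9 libraries and at 24 counts in day 45 replicate 2. Of these, 18 were called between days 16 and 45, 12 higher and 6 lower, 34% beside the 24.6% of all genes. To day 23 the calls were 7 higher and 3 lower, 18.9% beside 10.9% of all genes, and to day 38 they were 8 higher and 7 lower, 28.3% beside 15%. The other steps lay near the background, with 1 lower to day 31 (1.89% beside 2.25%) and 2 higher and 3 lower to day 45 (9.43% beside 11.2%). In the step to day 31 edgeR called 0 higher, DESeq2 called 1, and an unadjusted p under 0.05 with a higher level was reached by 4.

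The 24 genes of fatty acid supply, elongation and desaturation held most of the calls, with 8 higher and 3 lower at day 45 against day 16, 45.8% beside 24.6% of all genes. *ACSL1*, which activates long fatty acids with CoA, was at 5.71 and 1.23 CPM (day 16), 3.88 and 5.6 (day 23), 6.24 and 5.7 (day 31), 29.2 and 38.1 (day 38), 48.5 and 42.7 (day 45). All libraries up to day 31 were at or below 6.24 CPM and all later ones at or above 29.2 CPM, with a rise from day 31 to day 38 (log2 fold change 2.49 ± 0.40 SE, edgeR adjusted p = 1.8e-05). From day 16 to day 45 the difference was larger (log2 fold change 3.72 ± 0.43 SE, edgeR adjusted p = 2e-08). *SCD5*, the second stearoyl-CoA desaturase of humans, was at 6.47 and 5.17 CPM (day 16), 18.7 and 20.9 (day 23), 33.1 and 44 (day 31), 55.9 and 49.1 (day 38), 24.1 and 35.6 (day 45). It rose from day 16 to day 23 (log2 fold change 1.77 ± 0.30 SE, edgeR adjusted p = 7e-05), the step at which *SCD* fell, and was higher at day 45 than at day 16 (log2 fold change 2.36 ± 0.30 SE, edgeR adjusted p = 1.2e-07). The ratio of *SCD* to *SCD5* per length was 18.8 and 19.1 (day 16), 3.17 and 3.83 (day 23), 4.63 and 3.19 (day 31), 4.39 and 4.15 (day 38), 8.14 and 4.05 (day 45), largest in both libraries of day 16 and not tested. The desaturases of polyunsaturated fatty acids fell at the end: *FADS1* was at 84.6 ± 3.15 CPM at day 38 and 37.9 ± 7.58 CPM at day 45 (mean ± SD, n = 2; log2 fold change -1.16 ± 0.19 SE, edgeR adjusted p = 2.3e-05). *FADS2* was at 96.5 ± 6.24 and 35.3 ± 9.87 CPM (log2 fold change -1.46 ± 0.22 SE, edgeR adjusted p = 1.1e-05). Both were also lower at day 45 than at day 16, *FADS1* (log2 fold change -1.46 ± 0.19 SE, edgeR adjusted p = 1.3e-07) and *FADS2* (log2 fold change -1.31 ± 0.22 SE, edgeR adjusted p = 1.9e-05). The pair overlaps by 490 exon bases on opposite strands, 4.79% of those of *FADS1* and 4.64% of those of *FADS2*, so a part of these counts is uncertain. *ELOVL7*, an elongase, rose from day 38 to day 45 (log2 fold change 1.53 ± 0.24 SE, edgeR adjusted p = 2.3e-05). *ACSS2*, which makes acetyl-CoA from acetate, was higher at day 45 than at day 16 (log2 fold change 1.41 ± 0.38 SE, edgeR adjusted p = 0.00456, lost without day 45 replicate 2 at 1.21).

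In the branch of sterols and isoprenoids, 4 of 15 tested genes were called higher and 2 lower at day 45 against day 16, 40% beside 24.6% of all genes. *NPC2*, which hands cholesterol out of lysosomes, rose (log2 fold change 1.09 ± 0.20 SE, edgeR adjusted p = 4.6e-05), as did *ACAT1*, the mitochondrial thiolase (log2 fold change 1.23 ± 0.27 SE, edgeR adjusted p = 0.00066). *FAXDC2*, of the family of sterol desaturases, was at 125 and 100.5 CPM (day 16), 121 and 129.9 (day 23), 74 and 87.2 (day 31), 31.8 and 27.4 (day 38), 40.4 and 42.3 (day 45), with every late library below every early one (log2 fold change -1.45 ± 0.18 SE, edgeR adjusted p = 2.1e-07). On the opposite strand *NPC2* shares 3.99% of its exon bases with *ISCA2* and *FAXDC2* 2.35% with *CNOT8*. The machinery that cuts or turns over SREBP and INSIG was called in 1 of 9 genes between days 16 and 45 (*PAQR3*, log2 fold change -0.57 ± 0.18 SE, edgeR adjusted p = 0.0151, named after its value was seen). This share, 11.1%, lay below that of all genes. *PAQR3* shares 45.5% of its exon bases with *BMP2K* on the opposite strand. Of 5 LXR partners and targets, 1 was called between days 16 and 23, 20% beside 10.9% of all genes. This was *SMPDL3A*, higher at day 23 (log2 fold change 1.9 ± 0.60 SE, edgeR adjusted p = 0.0349). The call failed under 6 of 16 alternatives, among them each library of these days left out (log2 fold change 1.65 to 2.15).

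Other measures moved with the same days. The 6 proliferation genes *MKI67*, *TOP2A*, *CCNB1*, *CDK1*, *PCNA* and *MCM2* summed to 554 and 617 CPM (day 16), 400.1 and 380.1 (day 23), 516 and 456 (day 31), 524 and 509 (day 38), 293 and 409 (day 45). Both libraries of day 23 lay below those of day 16, as for *HMGCS1* and *IDI1*, and both of day 45 lay below those of day 38, where *HMGCS1* and *IDI1* were higher. From day 31 to day 38, 1 of the 6 was called higher and 1 lower. Over that step *MCM2* went from 52.6 ± 0.762 to 15.7 ± 3.29 CPM and *TOP2A* from 147 ± 9.36 to 226 ± 0.351 (mean ± SD, n = 2). The early response genes *FOS*, *JUN*, *EGR1* and *ATF3* and the heat shock genes *HSPA1A* and *DNAJB1* summed to 4103 to 5316 CPM up to day 38 and to 2616 to 2770.0 CPM at day 45. Within this list *DNAJB1* stood at 57.4 ± 10.2 CPM at day 38 and 237 ± 13 at day 45 and *ATF3* at 140.1 ± 4.04 and 276 ± 2.46 (mean ± SD, n = 2). From day 16 to day 23, where 5 members were called lower, 4 of the 6 thyroid markers were called higher and 1 lower. Mean *TG* went from 11.2 to 192 CPM and *TSHR* from 13.2 to 71.6. Mean *HHEX* went from 115 to 364 CPM and *FOXE1* from 764 to 337. Of the 5 fibroblast markers 2 were called higher and 2 lower. Mean *DCN* went from 5.88 to 31.4 CPM, *LUM* from 51.8 to 168 and *PRRX1* from 39.1 to 3.71. Among airway markers 1 was called lower, and among goblet markers 1 higher. The cardiovascular and goblet markers and the fibroblast markers *COL1A2* and *PDGFRA*, though not *LUM* or *PRRX1*, were higher in the libraries of days 38 and 45 than before, the former 2 as sums, and this difference fell in the step at which *ABCA1* and *ELOVL6* fell and *INSIG2*, *STARD4* and *SCD* rose. In that step, from day 31 to day 38, 2 of the 6 thyroid markers were called higher and 0 lower. *TG* went from 206 ± 8.23 to 5211 ± 475 CPM and *TSHR* from 77.5 ± 0.3 to 150 ± 0.859 (mean ± SD, n = 2). From day 38 to day 45, where *HMGCS1*, *IDI1*, *CYP51A1* and *MYLIP* rose, 3 of the 5 fibroblast markers (*DCN*, *LUM*, *PDGFRA*) were called higher and 0 lower. *COL1A2*, the most abundant of the 5, stood at 1151 and 1163 CPM at day 38 and at 1061 and 883 CPM at day 45. The 5 together summed to 1278 and 1281 CPM at day 38 and to 1349 and 1138 CPM at day 45. In the same step 3 of the 6 thyroid markers fell, *NKX2-1* from 143 ± 15 to 62.4 ± 6.12 CPM, *FOXE1* from 373 ± 13.1 to 211 ± 9.55 and *HHEX* from 283 ± 27 to 156 ± 9.1, and *TG* rose from 5211 ± 475 to 7744 ± 310.1 (mean ± SD, n = 2). The part of proliferation, of dissociation stress and of these other cells, and of a changing share of thyroid cells, in the members' changes was not tested.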

How the data were processed

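RNA-seq counts of 10 libraries, 2 per day, were analysed. The authors deposited raw, unnormalized counts per gene, made from paired-end reads with Trimmomatic (trimming), HISAT2 (alignment to GRCh38) and HTSeq (counting). The strand setting of the counting and the tool versions are not given in the sources used here, so counts of genes that share exon bases with a gene on the other strand are called uncertain. Low-input libraries without stated molecular identifiers can hold PCR copies, which adds spread that counting error does not cover.

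The 32 members and all gene lists were chosen with earlier results of these data known. Every member is named, and of the 54 related genes those called with an absolute log2 fold change of at least 1, with *PAQR3* and *CH25H* named outside this rule. From the counts, edgeR 4.0.16 (R 4.3.3, limma 3.58.1) computed TMM factors and quasi-likelihood tests with 1 mean per day over all 10 libraries (5 residual degrees of freedom), after a filter of at least 5 counts in at least 2 libraries (21014 of 28265 genes), with Benjamini-Hochberg adjustment and a threshold of 0.05. Library totals were 7247268 to 10333933 counts, of which RN7SK took 2.92 to 8.17%. Replicates differed by more than sampling noise (chi-square per degree of freedom 8.38 to 13.7) and each was counted as 1 sample. The methods call them biological replicates, but nothing says that they came from separate differentiations, and p-values measure only the spread between these samples. Levels per length used exons of GENCODE 44, and promoters came from RefSeq. Alternatives were library size without TMM factors, DESeq2 1.42.0, no low-count filter, filterByExpr, only the 4 libraries compared, replicate number as a block, and each library left out. On simulated counts for day 38 against day 31 (21014 genes, 200 changed), edgeR recovered 41% of changes of log2 1 and 88% of log2 2, with 9 false among 138 calls. The changed genes were drawn from those above a count limit, and no other day differed. In the data 3160 genes were called in that step, so these rates need not hold there.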

Additional observations from a re-analysis of the deposited data

How the results depend on the processing

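Of 35 member changes called between pairs of days, 16 were called under every alternative and with every library left out, 13 were lost only when a library was left out, 6 were lost under another alternative, and 0 reversed. Leaving out a library of a compared day leaves a lone sample that is assumed to vary like the other days. Of 15 called changes of at least 1 on the log2 scale in 10 related genes, tested under the same alternatives after the values were seen, 13 held under all. *PAQR3* was not among them.

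For day 23 against day 16 the number of members called higher was 2 with library size without TMM factors and 0 with only the 4 libraries compared. For day 31 against day 23 it was 7 with DESeq2 and 7 with the replicate block. For day 38 against day 31 it was 0 with library size, 5 with the block and 6 with the 4 libraries. The median there with library size was -0.0462 for the members and -0.2 for all genes. For day 45 against day 38 the number called lower was 3 without the filter, 3 with the block and 2 with the 4 libraries. For day 45 against day 16 the number called lower was 4 with library size, 4 without the filter and 4 with the block. With library size, genes called higher between days 31 and 38 were 1182 of 3550, beside 1850 of 3160 with TMM factors.

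With each library left out, the number called higher ranged from 0 to 2 (day 23 against 16), 1 to 7 (31 against 23), 0 to 5 (38 against 31), 1 to 4 (45 against 38) and 9 to 13 (45 against 16), and the number called lower from 4 to 5, 0 to 0, 1 to 3, 1 to 2 and 2 to 3 in the same order. The median ranged from -0.156 to -0.0226, 0.0749 to 0.345, 0.0604 to 0.25, -0.00316 to 0.184 and 0.301 to 0.545. The libraries whose absence took the number called higher to its lowest were day 16 replicate 2 and day 23 replicate 1 (0), day 23 replicates 1 and 2 and day 31 replicate 1 (1), day 31 replicate 2 and day 38 replicate 1 (0), and day 38 replicate 1 (1). The cause of these shifts was not tested.

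Replicate numbers share only a number: deviations of same-numbered libraries correlated between -0.032 and 0.0199 over genes in 10 pairs of days, and the block changed no member call to not called. Precision was lowest for the 11 members below 30 CPM, with a median SE of 0.515 on the log2 scale beside 0.19 for the other 21, and recovery by level was not tested.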
